A study of Mus musculus with 16 samples.

Results

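The genes described here are 36 genes of protein folding in the endoplasmic reticulum (ER) and of the unfolded protein response, taken as a named list. All 36 were among the 23329 genes of the count tables, and all 36 passed the filter on low counts. They were divided by known regulation into 24 genes of a chaperone branch (targets of the transcription factors ATF6 and XBP1), 4 sensor genes (Xbp1, Atf6, Ern1 and Eif2ak3), 7 genes of an ATF4 branch (Atf4, Ddit3, Trib3, Asns, Chac1, Ppp1r15a and Sesn2), and Wfs1 apart from these. They were measured by poly(A) RNA sequencing in BetaTC6 cells, a mouse β-cell line from an insulinoma with a C57BL/6 strain background. The 16 libraries made 4 groups of 4. Cells labelled wild type and cells labelled P2ry1 knockout were first held in glucose-free buffer, and each then received 20 mM glucose for 30 min with either ivermectin or DMSO (the vehicle). Which clone, deletion or ivermectin dose was used is not given in the sources used here. The design asks how ivermectin acts on mRNA levels at high glucose and whether P2ry1, a purinergic receptor gene, matters for it.

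Proteins bound for secretion, such as proinsulin, enter the ER, where chaperones hold them, oxidoreductases form their disulfide bonds and lectins retain glycoproteins until they are folded. Molecules that do not fold are moved back to the cytosol and degraded (ER-associated degradation, ERAD). When unfolded protein builds up, the membrane sensors ATF6, IRE1 (encoded by Ern1) and PERK (encoded by Eif2ak3) act. ATF6 and the spliced form of XBP1, made by IRE1, raise transcription of chaperone and ERAD genes, while PERK slows translation and raises ATF4, which raises genes of amino acid supply and of stress feedback. β-cells make much proinsulin and carry high basal levels of this machinery.

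The promoters of the members were searched on both strands for short binding motifs of these factors. The branches were made by known regulation, so motifs of ATF6 and XBP1 in the chaperone branch follow in part from that choice. Promoter sequences came from RefSeq (assembly GRCm38.p6, which is mm10, the build in the submitters' processing notes) and ran from 250 bases before to 50 after each transcription start. They were matched for 32 members; Hyou1, Manf, Derl1 and Atf6 had no entry. The ER stress response element, ERSE (CCAAT and CCACG with 9 open bases between them), was in the promoters of 10 of 21 matched chaperone-branch genes, and in 0 of 3 sensor genes and 0 of 7 ATF4-branch genes. Over all 32851 promoters of this length in the table, 0.119% held it, or 0.137% of the genes there. The 10 genes were Hspa5, Hsp90b1 (with 2 matches), Pdia6, Calr, Canx, Dnajc3, Creld2, Ero1lb, Syvn1 and Derl3. The related ERSE-II (ATTGG and CCACG with 1 open base between them) was in Dnajb11 and Herpud1 and in 0.0365% of all promoters. The ATF4 element TGATGNAA was in 3 of 7 ATF4-branch genes (Trib3, Asns and Chac1), in Herpud1, and in 3.97% of all promoters. The motif TGACGTGG, bound by XBP1 and ATF6, was in 0 members and in 0.676% of all promoters. In 3 promoters of the table, matches of different motifs shared bases. Such a match is a description of the letters and not evidence of binding.

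The following sequences are shown because they place the 2 branches' motifs beside genes whose levels are compared later. Each is printed from 5′ to 3′ on the strand of its gene, with the match in capitals. The Hspa5 promoter (BiP, the main ER Hsp70 chaperone) lies at chr2:34771840-34772089 and has its match from 65 to 47 bases before the start.
Hspa5: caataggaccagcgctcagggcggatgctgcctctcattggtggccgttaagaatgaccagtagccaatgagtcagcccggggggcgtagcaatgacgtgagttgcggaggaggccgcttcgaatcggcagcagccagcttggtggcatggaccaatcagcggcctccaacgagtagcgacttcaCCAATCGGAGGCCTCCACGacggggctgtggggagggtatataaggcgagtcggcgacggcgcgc
The next windows hold the ERSE of 3 genes that were lower in the knockout line (Dnajc3 at chr14:118937816-118937856, Syvn1 at chr19:6046521-6046561 and Calr at chr8:84847064-84847104 on the minus strand, where the match reads as the reverse complement).
Dnajc3: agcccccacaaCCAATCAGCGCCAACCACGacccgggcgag
Syvn1: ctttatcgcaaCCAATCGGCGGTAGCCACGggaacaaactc
Calr: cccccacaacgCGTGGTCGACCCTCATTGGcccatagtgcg
For 3 genes that carry the same motif and were not lower (Hsp90b1 at chr10:86705627-86705667 on the minus strand, Pdia6 at chr12:17266480-17266520 and Canx at chr11:50325789-50325829 on the minus strand), the windows were as follows.
Hsp90b1: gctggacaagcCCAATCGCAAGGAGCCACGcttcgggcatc
Pdia6: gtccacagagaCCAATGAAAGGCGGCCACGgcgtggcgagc
Canx: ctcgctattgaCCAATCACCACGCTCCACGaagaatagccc
The ERSE-II window of Herpud1 lies at chr8:94386366-94386398.
Herpud1: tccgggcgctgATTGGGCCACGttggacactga
The ATF4 elements lie at chr6:7693214-7693243 for Asns (minus strand), chr2:119351038-119351067 for Chac1 (reverse complement) and chr2:152344028-152344057 for Trib3 (minus strand, reverse complement, after the start).
Asns: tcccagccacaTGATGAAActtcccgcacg
Chac1: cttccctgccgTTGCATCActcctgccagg
Trib3: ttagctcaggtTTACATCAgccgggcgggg

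Library totals ran from 893288 to 2013475 counts, with the 4 lowest in the wild-type vehicle group. P2ry1 itself averaged 94.6 ± 8.57 CPM in wild-type vehicle libraries and 84.0 ± 8.97 in knockout vehicle libraries (SD, n = 4 each; CPM are counts scaled to a common library total with TMM factors), so its gene-level count did not separate the labels, and every direction below rests on the labels. The β-cell identity of all groups was plain in Ins2, at 19810 to 21420 CPM in group means, while acinar markers summed to at most 2.94 CPM in any library and Cpa1, Prss2, Amy2a5 and Krt19 were at 0 in every group mean, where a count of 0 allows up to 1.49 to 3.36 CPM in a library (3 counts; marker levels were scaled by the library total alone). Hepatocyte transcripts were present and uneven: the summed level of 16 markers such as Alb was 705 to 2008 CPM in wild-type vehicle libraries, 124 to 373 in wild-type ivermectin, 54.6 to 132 in knockout vehicle and 80.5 to 308 in knockout ivermectin. Among other islet hormones, Sst averaged 219 and 229 CPM in the wild-type vehicle and ivermectin groups and 15.3 and 18.4 CPM in those of the knockout line. The labels do not say whether the libraries of a group came from separate cultures, so p-values measure only the spread between libraries, which may be technical. In these bulk samples, fewer cells of a type and less RNA per cell cannot be told apart.

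Per transcript length, the folding machinery was led by Calr at 2420 ± 26.6 TPM (a level scaled for transcript length and library total; SD, n = 4, wild-type vehicle), followed by Hsp90b1 at 2096 ± 86.9, Hspa5 at 1727 ± 67.4, Pdia6 at 1613 ± 51.7 and P4hb at 1486 ± 64.6. Calr stood above Hsp90b1 in every wild-type vehicle library, while the libraries of Hspa5 and Pdia6 overlapped. Ero1lb, the oxidase isoform known from pancreas, was at 524 ± 46.2 TPM, against 20.8 ± 4.65 TPM for Ero1l, the lowest of the 36. Among regulators, Atf4 (405 ± 20.2 TPM) and Xbp1 (357 ± 23.8 TPM) were well above the sensor genes Ern1 (43.1 ± 8.51 TPM), Eif2ak3 (32.9 ± 3.58 TPM) and Atf6 (27.4 ± 3.32 TPM). The other ATF4-branch genes ran from Ppp1r15a at 30.8 ± 3.43 TPM and Trib3 at 31.9 ± 5.95 TPM through Sesn2 (57.0 TPM), Chac1 (64.4 TPM) and Ddit3 (132 TPM) to Asns at 402 TPM. Together the 36 genes took 2.49% to 2.56% of all counts in wild-type vehicle libraries and 2.50% to 2.62% in wild-type ivermectin libraries. In the knockout line they took 2.27% to 2.32% with vehicle and 2.36% to 2.42% with ivermectin, below every wild-type library.

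In the knockout line, a large part of the chaperone branch was lower than in wild type, under both vehicle and ivermectin. None of the 4 sensor genes passed in either comparison, a small set beside the shares of all genes given next. With vehicle, 17 of the 36 genes passed the test (edgeR's quasi-likelihood test, Benjamini-Hochberg adjusted p under 0.05 over all 10822 genes tested), 14 of them lower and 3 higher, where 20.7% of all genes tested passed (10.8% lower and 9.9% higher). With ivermectin, 16 passed, 14 lower and 2 higher, where 27.8% of all genes passed (13.9% lower and 14% higher). The 2 comparisons share no library, but both set the same 2 lines against each other in 1 fit. A fixed difference between the lines would recur in both, so they are not independent repeats. Loss of P2ry1 and other differences between the lines cannot be told apart in this design. In both comparisons 13 of the 36 genes were lower, against 7.73% of all genes tested, and 1 (Ero1l) was higher, against 7.32%. Of those 13, 12 were in the chaperone branch and 1, Sesn2, was in the ATF4 branch. The chaperone branch had a median log2 difference of -0.19 with vehicle and -0.19 with ivermectin. The ATF4 branch had medians of 0.06 and 0.01, which were not stable in sign: after thinning to the smallest total they were -0.018 and -0.124, and the second ran from -0.139 (without wild-type ivermectin replicate 1) to 0.0529 (without wild-type ivermectin replicate 3) as each library was left out. For all genes tested the medians were within 0.001 of 0. Without wild-type vehicle replicate 4, 11 rather than 17 genes passed with vehicle, all 11 lower, where the calls over all genes went from 2245 of 10822 to 1860 of 10987. Without wild-type ivermectin replicate 4, P4hb, Ero1lb and Trib3 also passed with ivermectin, each higher. The calls over all genes then went from 3011 of 10822 to 2928 of 11005. With the hepatocyte transcript Alb as a covariate, which largely marks the wild-type vehicle group, 2 genes (Hyou1 and Pdia4) passed with vehicle and 16 with ivermectin, while over all genes tested the calls with vehicle went from 2245 to 383. The chaperone branch's median with vehicle was then -0.23, and its lower genes that lost the call lay between -0.81 (Derl3) and -0.16 (Calr, edgeR adjusted p = 0.46). Among them Dnajb11 moved from -0.41 to -0.23 (edgeR adjusted p = 0.42), Dnajc3 from -0.19 to -0.35 and Hspa5 from -0.29 to -0.25. In the ivermectin libraries the hepatocyte sums of the 2 lines overlapped.

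**Figure D1:**
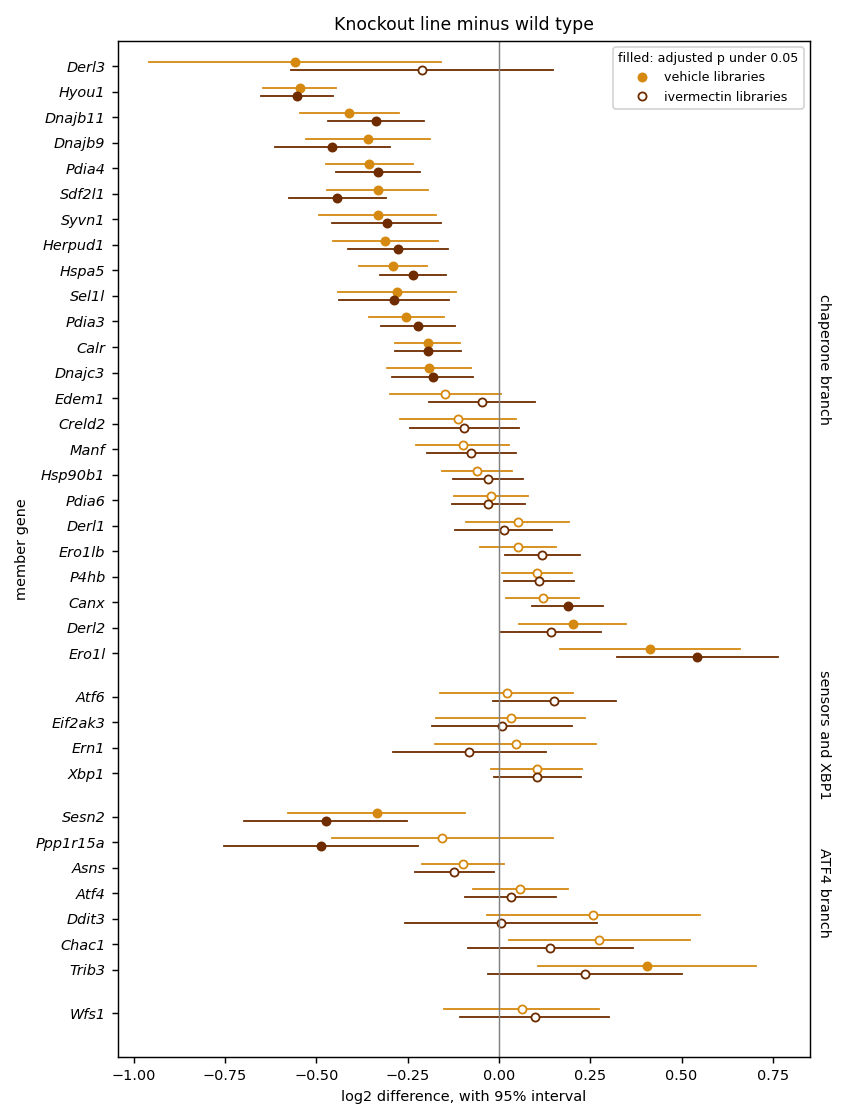
Log2 difference between the knockout line and wild type for the 36 genes (rows, by branch), in vehicle libraries (light) and ivermectin libraries (dark), with 95% intervals from the edgeR fit; filled points passed at an adjusted p under 0.05. Most chaperone-branch genes lie left of 0 in both colours, Hyou1 at -0.55 in each, while the 4 sensor genes have open points, Atf6 with ivermectin at 0.15 being the farthest of them from 0.

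Most of the listed genes of the BiP machinery were lower in the knockout line. BiP (Hspa5) binds unfolded chains with help from J-domain cochaperones (Dnajb9, Dnajb11, Dnajc3), the exchange factor Hyou1 and the Dnajb11 partner Sdf2l1, and 6 of the 7 genes of this Hsp70 and Hsp90 group were lower in both comparisons, where 7.73% of all genes tested were. Hyou1 was at 1341, 1428, 1389 and 1421 CPM in wild-type vehicle libraries and at 973, 966, 926 and 958 CPM in knockout vehicle libraries. With ivermectin it was at 1349, 1436, 1317 and 1491 CPM in wild type and at 926, 985, 947 and 957 CPM in the knockout line. All 8 knockout libraries were thus below all 8 wild-type libraries. The log2 difference was -0.55 ± 0.05 (SE) with vehicle (edgeR adjusted p = 1.2e-10) and -0.55 ± 0.05 with ivermectin (edgeR adjusted p = 6.4e-11).

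Hspa5 was at 2764, 2776, 2631 and 2667 CPM in wild-type vehicle libraries, and at 2188, 2167, 2255 and 2256 CPM in knockout vehicle libraries. Its ivermectin libraries read 2610, 2826, 2774 and 2905 CPM in wild type and 2428, 2282, 2398 and 2335 CPM in the knockout line, again with no overlap between the lines. That is a log2 difference of -0.29 ± 0.05 with vehicle (edgeR adjusted p = 8.7e-06) and -0.24 ± 0.05 with ivermectin (edgeR adjusted p = 0.00014). Dnajb11 was at 422, 397, 385 and 467 CPM in wild-type vehicle libraries and at 297, 302, 323 and 335 CPM in knockout vehicle libraries. With ivermectin its wild-type libraries read 392, 380.4, 391 and 451 CPM and its knockout libraries 323, 302, 324 and 327 CPM, so that the lowest wild-type library was above the highest knockout library. Its log2 differences were -0.41 and -0.34. Sdf2l1 ranged from 469 to 583 CPM over the wild-type libraries and from 357 to 425 CPM over those of the knockout line, with log2 differences of -0.33 and -0.44. Dnajb9 differed by -0.36 and -0.46, and its 8 knockout libraries also lay below all wild-type ones.

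Dnajc3, which also restrains PERK, had the smallest difference of these 6 genes. It differed by -0.19 with vehicle (edgeR adjusted p = 0.013) and -0.18 with ivermectin (edgeR adjusted p = 0.011). The first call was lost without wild-type vehicle replicate 1 (edgeR adjusted p = 0.063) and the second without knockout ivermectin replicate 1 (edgeR adjusted p = 0.086), over ranges of 0.012 to 0.063 and 0.0056 to 0.086 as each library was left out. The first was also lost without the low-count filter (log2 difference -0.16, edgeR adjusted p = 0.058). Hsp90b1, the ER Hsp90 and the seventh gene, did not pass, with means of 3594 ± 118 and 3449 ± 52.9 CPM with vehicle and 3824 ± 233 and 3744 ± 185 CPM with ivermectin (SD, n = 4; wild type first). The 95% interval of its vehicle difference, -0.16 to 0.04 on the log2 scale, does not reach the fitted difference of Hspa5.

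**Figure D2:**
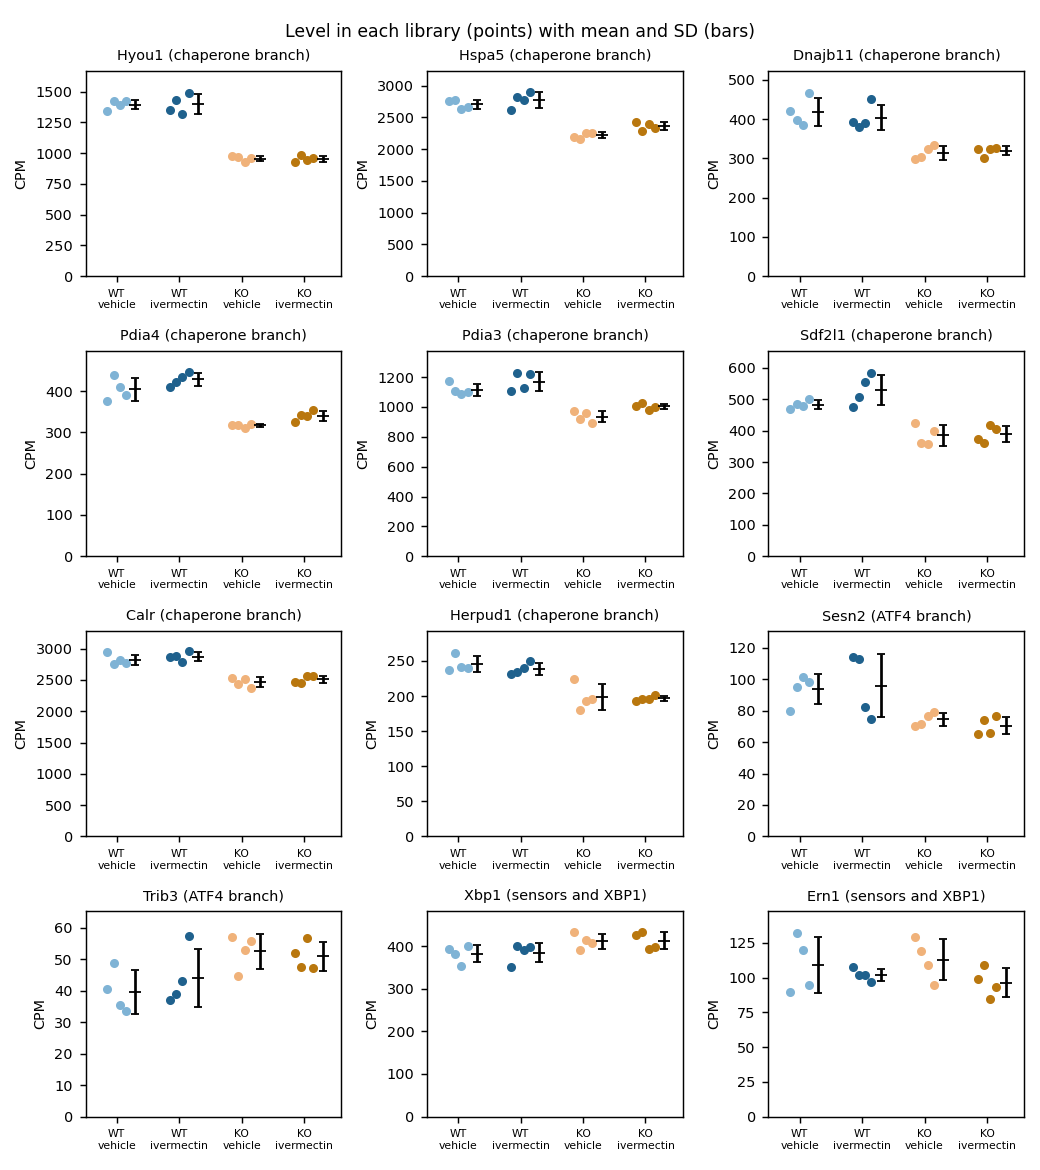
CPM of 12 of the genes in each of the 16 libraries (points, 4 per group), with the group mean and SD beside them. The genes were picked by the number of comparisons passed, then by adjusted p with vehicle, with some from each class, which favours separated lines. In the 8 chaperone-branch panels every knockout library is below every wild-type library, while Sesn2, Trib3, Xbp1 and Ern1 overlap between the lines. Dnajc3, Syvn1, Sel1l and Ero1l also passed in both comparisons, overlap between the lines over all libraries, and are not shown.

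Disulfide and lectin genes split by member. Pdia3 and Pdia4, protein disulfide isomerases of which Pdia3 works with the lectins on glycoproteins, were lower in both comparisons. Pdia4 was at 377, 440.0, 410.2 and 391 CPM in wild-type vehicle libraries and at 317, 319, 310.3 and 320.0 CPM in knockout vehicle libraries. With ivermectin it was at 411, 422, 434 and 445.5 CPM in wild type and at 324, 342, 339 and 355 CPM in the knockout line. The lines did not overlap, with log2 differences of -0.35 ± 0.06 (edgeR adjusted p = 2.3e-05) and -0.33 ± 0.06 (edgeR adjusted p = 2.8e-05). Pdia3 ranged from 1085 to 1230 CPM in wild type and from 890.0 to 1025 CPM in the knockout line, with log2 differences of -0.25 and -0.22. Pdia6 and P4hb, abundant isomerases of the same family, did not pass: Pdia6 averaged 2079 and 2047 CPM with vehicle and 2205 and 2159 CPM with ivermectin, and P4hb 2326 and 2501 CPM, then 2431 and 2623 CPM (wild type first). P4hb did pass with ivermectin when wild-type ivermectin replicate 4 was left out (log2 difference 0.16, edgeR adjusted p = 0.0072, over a range of 0.0072 to 0.24) and under DESeq2 (adjusted p = 0.047).

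The oxidases that recharge the isomerases went the other way or did not pass. Ero1l was at 47.2, 72.4, 66.2 and 49.2 CPM in wild-type vehicle libraries and at 75.5, 80.2, 83.8 and 73.6 CPM in knockout vehicle libraries. It was higher by 0.41 ± 0.12 on the log2 scale with vehicle (edgeR adjusted p = 0.012) and by 0.54 ± 0.11 with ivermectin (edgeR adjusted p = 0.00025). Ero1l is placed in the chaperone branch here, but the product of Ddit3 is known to raise it as well. The vehicle call was lost without wild-type vehicle replicate 1 or 4 (edgeR adjusted p = 0.062 and 0.077; range over libraries left out 0.0035 to 0.077). Ero1lb averaged 1419 and 1473 CPM with vehicle and 1436 and 1559 CPM with ivermectin and did not pass; without wild-type ivermectin replicate 4 it passed with ivermectin (log2 difference 0.16, edgeR adjusted p = 0.02, range 0.02 to 0.19), as it did under DESeq2 (adjusted p = 0.049). Creld2, an ER protein with isomerase activity, and Manf, a secreted ER stress factor, did not pass in either comparison, with log2 differences of -0.11 and -0.10 with vehicle.

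Of the lectin pair, Calr was lower in both comparisons and Canx was higher with ivermectin. Calr, the soluble lectin, was at 2941, 2756, 2814 and 2774 CPM in wild-type vehicle libraries and at 2532, 2439, 2516 and 2369 CPM in knockout vehicle libraries. With ivermectin the values were 2866, 2876, 2782 and 2955 CPM in wild type and 2460.0, 2450.0, 2556 and 2567 CPM in the knockout line, with no overlap. The log2 difference was -0.20 ± 0.04 (edgeR adjusted p = 0.0012) and -0.19 ± 0.04 (edgeR adjusted p = 0.00098). Canx, its membrane-bound relative, was higher with ivermectin by 0.19 ± 0.05 (edgeR adjusted p = 0.0034), at 1302 ± 44.6 CPM in wild type and 1482 ± 49.7 CPM in the knockout line. After thinning to the smallest total Canx did not pass there (0.14, edgeR adjusted p = 0.10). With vehicle it differed by 0.12 and did not pass (edgeR adjusted p = 0.080), but it did without knockout vehicle replicate 1 (edgeR adjusted p = 0.049, range 0.049 to 0.18) and under DESeq2 (adjusted p = 0.046).

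Ratios of a pair of genes within a library do not depend on how libraries are scaled. These pairs were picked after the values were seen, as neighbours in role with unequal differences, and carry no test. Hyou1 per Hsp90b1 was 0.343 to 0.413 in wild-type libraries and 0.244 to 0.286 in those of the knockout line. Pdia4 per Pdia6 was 0.178 to 0.210 in wild type and 0.150 to 0.164 in the knockout line, and Calr per Canx was 2.05 to 2.33 against 1.59 to 1.91. In each pair the lowest wild-type library was above the highest knockout library, as the choice of pairs by their unequal differences favoured.

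**Figure D3:**
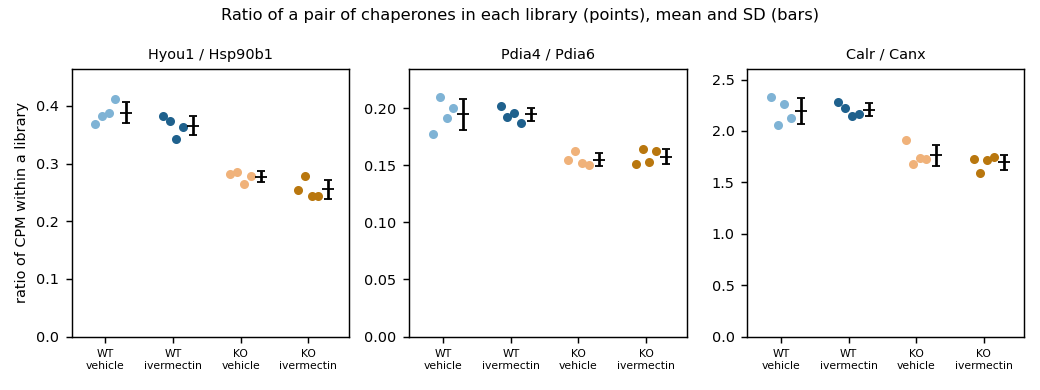
Ratio of CPM of 3 pairs of ER folding genes within each library (points), with the group mean and SD. The 8 wild-type libraries lie above the 8 knockout libraries in all 3 panels, for instance at 0.343 or more against 0.286 or less for Hyou1 per Hsp90b1.

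Among the 7 ERAD genes, the ubiquitin ligase core and Herpud1 were lower and the derlins were not uniform. Herpud1, a membrane protein of the ligase complex, was at 237, 262, 241 and 240.5 CPM in wild-type vehicle libraries and at 224, 180.0, 193 and 197 CPM in knockout vehicle libraries. Its ivermectin libraries were at 231, 235, 239 and 250.3 CPM in wild type and at 194, 195, 196 and 202 CPM in the knockout line, below every wild-type library. The log2 differences were -0.31 ± 0.07 (edgeR adjusted p = 0.0013) and -0.28 ± 0.07 (edgeR adjusted p = 0.0020). Syvn1, the ligase Hrd1, differed by -0.33 and -0.31, and its partner Sel1l by -0.28 and -0.29. For Sel1l the vehicle call was lost without wild-type vehicle replicate 4 (edgeR adjusted p = 0.051, range 0.0052 to 0.051).

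Derl3 and Derl2, channel-forming derlins, passed with vehicle alone, in opposite directions: Derl3 differed by -0.56 ± 0.20 (edgeR adjusted p = 0.040) and Derl2 by 0.20 ± 0.07 (edgeR adjusted p = 0.044). With ivermectin they differed by -0.21 and 0.14 and did not pass, and no difference between the treatments passed for either. Neither vehicle call was firm. The Derl3 call was lost on leaving out 1 of 5 libraries (wild-type vehicle replicates 1, 3 and 4 and knockout vehicle replicates 3 and 4; highest edgeR adjusted p = 0.21, lowest 0.016). The Derl2 call was lost on leaving out 1 of 8 libraries (wild-type vehicle replicates 1, 2 and 4, wild-type ivermectin replicate 2 and each knockout vehicle library; highest edgeR adjusted p = 0.12, lowest 0.033). Both were also lost under DESeq2 (adjusted p = 0.11 each), and that of Derl2 in a fit of only the 8 libraries compared (edgeR adjusted p = 0.059). Derl2 was nevertheless higher in all 8 knockout libraries than in all 8 wild-type ones, the single member of which that held (4.74% of all genes tested). The opposite pattern held for 9 of the 36 genes, with all knockout libraries lower (5.54% of all genes): Hspa5, Pdia3, Pdia4, Calr, Dnajb9, Dnajb11, Sdf2l1, Herpud1 and Hyou1. Derl1 averaged 228 and 236 CPM with vehicle, and Edem1, which directs misfolded glycoproteins to disposal, 212 and 191 CPM; neither passed.

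No sensor gene passed the test, where 20.7% of all genes tested passed with vehicle and 27.8% with ivermectin. With only 4 genes, a count of 0 says little beside these shares. Xbp1 was at 393, 381, 354 and 399 CPM in wild-type vehicle libraries and at 433, 390.2, 414 and 407 CPM in knockout vehicle libraries. With ivermectin it was at 351, 401, 390 and 397 CPM in wild type and at 426, 434, 394 and 397 CPM in the knockout line. These ranges overlap, with log2 differences of 0.10 and 0.11 (edgeR adjusted p = 0.24 and 0.18) and 95% intervals of -0.02 to 0.23 and -0.01 to 0.22. Gene-level counts do not separate the spliced from the unspliced Xbp1 transcript, so they do not measure IRE1 activity. Ern1 averaged 109 ± 20.1 and 113 ± 14.8 CPM with vehicle, Eif2ak3 94.7 ± 8.31 and 97.3 ± 8.62 CPM, and Atf6 133 ± 12.6 and 136 ± 13.0 CPM (SD, n = 4; wild type first). With ivermectin Atf6 averaged 129 ± 9.12 and 144 ± 10.5 CPM, a log2 difference of 0.15 with a 95% interval of -0.02 to 0.32 (edgeR adjusted p = 0.18). The 95% intervals of Ern1 were -0.17 to 0.27 with vehicle and -0.29 to 0.13 with ivermectin. Those of Eif2ak3 were -0.17 to 0.24 and -0.18 to 0.20. With ivermectin the interval of Ern1 thus includes the chaperone branch's median of -0.19. None of the 4 passed in either comparison. Wfs1, an ER membrane protein of β-cells whose loss causes Wolfram syndrome, averaged 107 and 112 CPM with vehicle and did not pass either.

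In the ATF4 branch, the share of genes that passed was near that of all genes tested. With vehicle 2 of 7 passed, Trib3 higher and Sesn2 lower, and with ivermectin 2 of 7 passed, Sesn2 and Ppp1r15a, both lower. That is 28.6% of the branch in each comparison, near the 20.7% and 27.8% of all genes tested that passed. Sesn2, a stress-induced inhibitor of mTORC1, was at 79.8, 94.9, 101.5 and 98.4 CPM in wild-type vehicle libraries and at 70.3, 71.7, 76.8 and 78.9 CPM in knockout vehicle libraries. With ivermectin its wild-type libraries were spread, at 114, 113, 82.2 and 75.0 CPM, and overlapped the knockout libraries at 65.4, 74.3, 66.0 and 76.3 CPM. The log2 differences were -0.33 ± 0.12 (edgeR adjusted p = 0.043) and -0.47 ± 0.11 (edgeR adjusted p = 0.0013). Trib3, a pseudokinase that restrains ATF4, was at 40.5, 48.9, 35.3 and 33.4 CPM in wild-type vehicle libraries and at 56.9, 44.6, 52.9 and 55.6 CPM in knockout vehicle libraries, which overlap. Its log2 difference was 0.41 ± 0.15 (edgeR adjusted p = 0.045).

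Both vehicle calls of the ATF4 branch were unstable. That of Sesn2 was lost on leaving out 1 of 6 libraries (wild-type vehicle replicates 2, 3 and 4 and knockout vehicle replicates 1, 2 and 3; edgeR adjusted p between 0.026 and 0.13 over all libraries left out). That of Trib3 was lost on leaving out 1 of 6 (wild-type vehicle replicates 1, 3 and 4 and knockout vehicle replicates 1, 3 and 4; edgeR adjusted p between 0.019 and 0.17). Under DESeq2 neither passed (adjusted p = 0.11 for Sesn2 and 0.13 for Trib3). Trib3 did not pass with ivermectin (log2 difference 0.24), but did without wild-type ivermectin replicate 4 (0.37, edgeR adjusted p = 0.034, range 0.034 to 0.45). Ppp1r15a, which encodes GADD34, the phosphatase subunit that ends the PERK signal, was at 61.5, 43.3, 53.7 and 56.6 CPM in wild-type ivermectin libraries and at 44.0, 36.6, 34.6 and 37.5 CPM in knockout ivermectin libraries. The log2 difference there was -0.49 ± 0.13 (edgeR adjusted p = 0.0049), and with vehicle it was -0.15 and did not pass. The ivermectin call was lost after thinning to the smallest total (-0.37, edgeR adjusted p = 0.21). Atf4 averaged 413 ± 19.0 and 430.4 ± 28.6 CPM with vehicle and 450.3 ± 36.7 and 459 ± 22.1 CPM with ivermectin. Asns, which makes asparagine, differed by -0.10 and -0.12 and did not pass, except with ivermectin under the filter at a mean of 50 counts (-0.14, edgeR adjusted p = 0.042). Chac1, which degrades glutathione, and Ddit3, which encodes the factor CHOP, differed by 0.28 and 0.26 with vehicle and did not pass, except that Chac1 did without knockout vehicle replicate 3 (edgeR adjusted p = 0.030, range 0.030 to 0.38) and Ddit3 without wild-type vehicle replicate 1 (edgeR adjusted p = 0.045, range 0.045 to 0.54).

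The 2 branches were set side by side as the mean log2 deviation of their genes from the 16-library mean in each library, a description without a test. For the chaperone branch it was 0.0286 to 0.169 over the wild-type libraries and -0.128 to -0.00123 over those of the knockout line, which do not overlap. For the ATF4 branch it was -0.114 to 0.00652 in wild-type vehicle libraries and -0.0607 to 0.0914 in knockout vehicle libraries, and with ivermectin it was 0.00534 to 0.113 in wild type and -0.0455 to -0.00453 in the knockout line. The chaperone deviation minus the ATF4 deviation was 0.0569 to 0.158 in wild-type vehicle libraries and -0.183 to -0.0612 in knockout vehicle libraries. Because each gene was centred on its own mean, the sign does not say which branch had the higher level. With ivermectin the ranges of the same difference overlapped, at -0.0122 to 0.0563 and -0.0606 to 0.0156. No gene of either branch passed the test of a difference between the treatments.

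**Figure D4:**
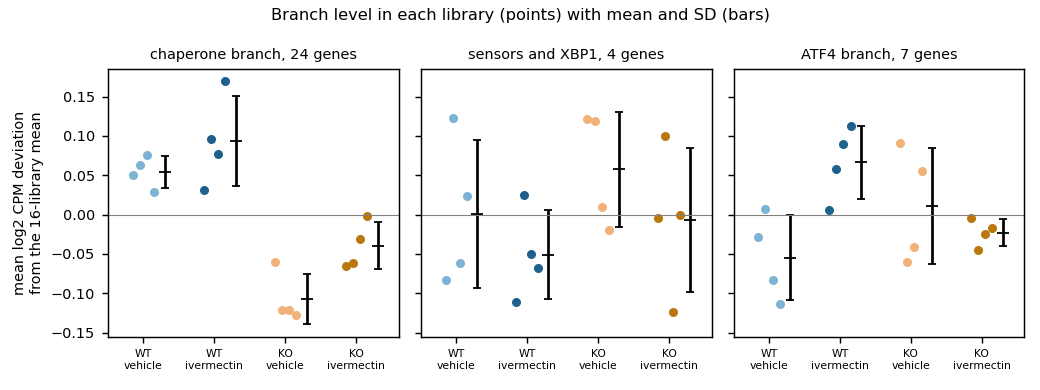
Mean log2 CPM deviation of the chaperone branch (24 genes), the sensors (4 genes) and the ATF4 branch (7 genes) from the 16-library mean, in each library (points), with group mean and SD. The chaperone panel separates the lines, from 0.0286 up in wild type and from -0.00123 down in the knockout line, and the sensor panel does not. In the ATF4 panel the lines overlap with vehicle and do not overlap with ivermectin, at 0.00534 to 0.113 in wild type and -0.0455 to -0.00453 in the knockout line.

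The exact ERSE stood in genes that were lower and in genes that were not. Of the 10 chaperone-branch genes with the exact motif, 4 were lower in both comparisons (Hspa5, Calr, Dnajc3 and Syvn1), and of the 11 matched genes without it 7 were, where 7.73% of all genes tested were. Those 7 include Dnajb11 and Herpud1, which carry ERSE-II. Of the 9 matched genes with neither motif, 5 were lower in both. The median log2 difference with vehicle was -0.15 for the 10 genes with ERSE, -0.28 for the 11 without it and -0.25 for the 9 with neither motif. The windows printed above for Hsp90b1, Pdia6 and Canx hold the same fixed letters as those for Dnajc3, Syvn1 and Calr.

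No gene of the 36 passed the test for ivermectin after 30 min, in either line. In wild type 0 of 36 passed, where 0.61% of all genes did, and in the knockout line 0 of 36 passed, where 0% did. DESeq2 also called 0 in each. At an unadjusted p under 0.05 there was 1 gene in wild type (5.22% of all genes tested) and 4 in the knockout line (7.6%). The gene in wild type was Ppp1r15a, at 51.7, 43.0, 38.5 and 42.7 CPM with vehicle and 61.5, 43.3, 53.7 and 56.6 CPM with ivermectin. The groups overlapped, with a log2 difference of 0.29 and a 95% interval of 0.0008 to 0.59 (edgeR adjusted p = 0.95). The 4 in the knockout line were Hsp90b1 (0.12), Dnajc3 (0.12), Pdia3 (0.10) and Ern1 (-0.22), with edgeR adjusted p-values of 0.61 to 0.65.

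For the ATF4 branch the signs of the ivermectin differences were not the same in the 2 lines, and no test of that passed. All 7 ATF4-branch genes had log2 differences above 0 in wild type (median 0.12), 2 of 7 did in the knockout line (median -0.04), and 50.1% and 50.2% of all genes tested did. The wild-type median was 0.0537 after thinning all libraries to the smallest total and 0.0792 to 0.166 as each library was left out (lowest without wild-type ivermectin replicate 4, highest without wild-type ivermectin replicate 1). The knockout median was not stable in sign: it was 0.0393 after thinning, and -0.0897 to -0.0043 as each library was left out (nearest to 0 without knockout vehicle replicate 1, farthest without knockout vehicle replicate 2). The genotype by treatment interaction was below 0 for 7 of 7 (above 0 for 50.3% of all genes), with a median of -0.14 (-0.18 without wild-type vehicle replicate 3 to -0.0794 without wild-type vehicle replicate 1) and a largest size of -0.33 for Ppp1r15a (edgeR adjusted p = 1.0). None of the 36 genes passed for the interaction, where 0.222% of all genes did, and 0 had an unadjusted p under 0.05 (5.12% of all genes); DESeq2 called 0 as well. In the chaperone branch 19 of 24 genes were above 0 in wild type and 21 of 24 in the knockout line, with medians of 0.06 and 0.08. For Hspa5 the 95% interval of the ivermectin difference was -0.06 to 0.13 in wild type and -0.0009 to 0.18 in the knockout line.

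**Figure D5:**
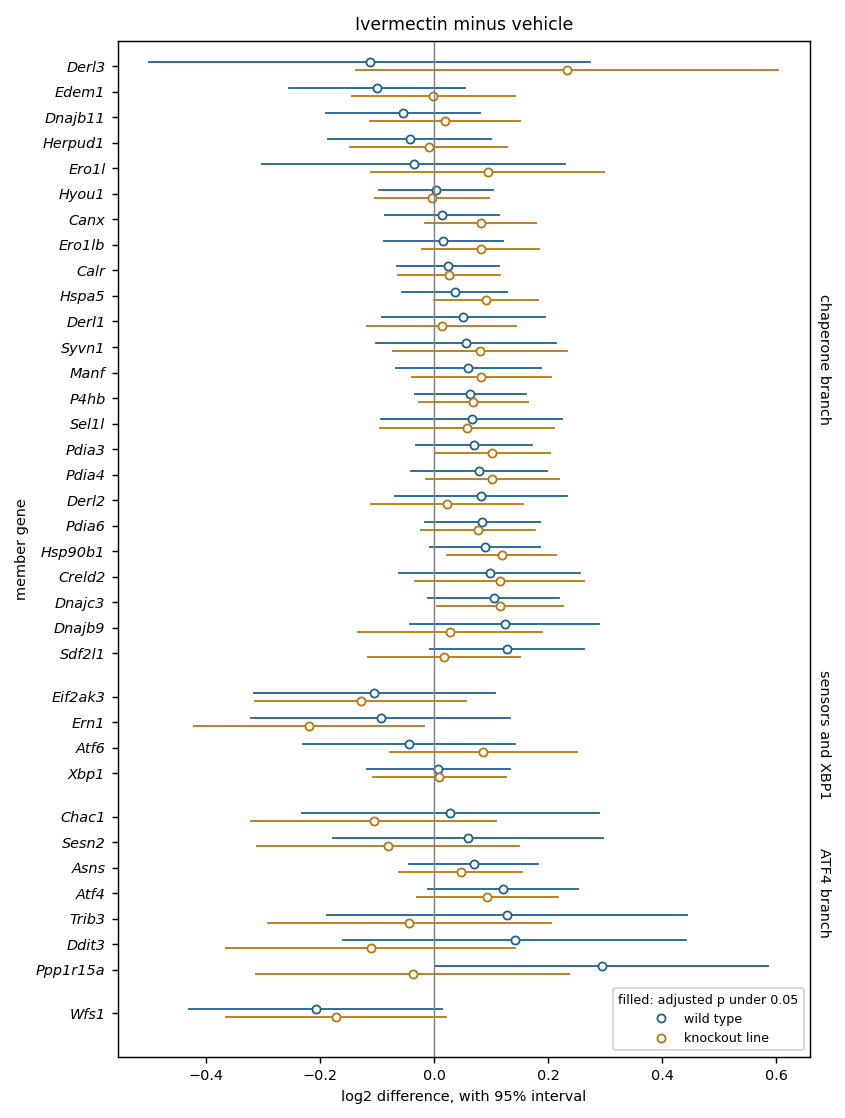
Log2 difference between ivermectin and vehicle for the 36 genes in wild type (blue) and in the knockout line (brown), with 95% intervals; all points are open because none passed at an adjusted p under 0.05. Ppp1r15a stands at 0.29 in wild type, and the 7 ATF4-branch genes lie right of 0 there.

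Further genes of each side, from lists that do not include the members, were compared between the lines in the same way. Of 61 other ER translocation, folding and degradation genes, 57 were tested; with vehicle 13 were lower and 5 higher in the knockout line, and with ivermectin 13 were lower and 9 higher. As shares of those tested, 31.6% passed with vehicle and 38.6% with ivermectin, against 20.7% and 27.8% of all genes. Lower genes were 22.8% of those tested in each comparison, against 10.8% and 13.9% of all genes, and higher genes were 8.77% and 15.8%, against 9.9% and 14%. Lower in both were Hspa13, a microsomal Hsp70 relative (-0.48 and -0.51), the peptidyl-prolyl isomerase Fkbp14 (-0.73 and -0.64) and Vcp, the segregase that pulls ERAD substrates out (-0.28 and -0.26). Mbtps1, the protease that cuts ATF6 in the Golgi, was lower as well (-0.41 and -0.26). Higher in both were Erlec1, an ERAD lectin (0.56 and 0.31), Prkcsh, a glucosidase subunit (0.29 and 0.28), and the translocon subunit Sec61g (0.28 and 0.35). Their median log2 differences were -0.03 and -0.0036, against -0.19 for the members of the chaperone branch.

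Of 51 other ATF4-side genes, 45 were tested, of which 7 were lower and 10 higher with vehicle, and 9 lower and 10 higher with ivermectin. That is 37.8% and 42.2% of those tested, against 20.7% and 27.8% of all genes. The serine synthesis genes Phgdh (0.67 and 0.65), Psat1 (0.41 and 0.47) and Psph (0.63 and 0.53) were all higher in the knockout line. The 8 amino acid transporter genes of the list had no common direction. Slc7a5 (-0.44 and -0.47), Slc3a2 (-0.18 and -0.16) and Slc38a2 (-0.37 and -0.38) were lower in both comparisons, Slc7a1 (-0.22 and -0.29) passed with ivermectin, Slc7a3 (0.69 and 0.38) was higher in both, and Slc7a11, Slc1a4 and Slc1a5 did not pass. The transcription factor Atf5 was lower (-0.38 and -0.38). The translational repressor gene Eif4ebp1 was higher (0.48 and 0.55).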

How the data were processed

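Expected counts and TPM per gene were made by the authors with RSEM 1.3.3 after alignment with STAR 2.7.2b to mm10, per the submitters' processing notes. The authors also deposited a count table, which equalled the expected counts rounded down for 100% of values and served as an alternative. For every main result the expected counts were rounded to whole numbers. Genes were kept with edgeR's filterByExpr (minimum count 10, minimum total 15), which left 10822 of 23329. They were scaled by TMM factors and tested with edgeR 4.0.16 in R 4.3.3 (quasi-likelihood F test, 1 mean per group over all 16 libraries, Benjamini-Hochberg adjustment, threshold 0.05). Groups came from the genotype and treatment labels. Standard errors and 95% intervals came from the same fit. CPM served for 1 gene between libraries and TPM for levels between genes. RNA input, kit and read length were the same for all libraries, per the labels. Amplified reads are not independent molecules, so limits from counts cover counting error only.

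The members and the lists were chosen with earlier results of these data known, so lists are described by counts and medians without a test. Named genes are all members, with values for those past the threshold or beside one in role, and, of the other lists, genes past the threshold with large differences or a shared role. The genes of those lists that are named outside the 4 largest in each direction were chosen after their values were seen. Alternatives were DESeq2 1.42.0, relative log expression factors, 2 other low-count filters, the deposited counts, a fit of only the 8 libraries compared, the replicate number as a block, thinning to the smallest total, Alb as a covariate and leaving out each library in turn. Human files were not used.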

Additional observations from a re-analysis of the deposited data

Results flagged for a closer look

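Among the 36 genes in 4 groups of 4 libraries, 144 sets of values were examined for a library that stands far from the other 3 of its group, and 6 were found, where chance gives about 1 in 20, or 7.2. Dnajb9 was at 129 CPM in knockout ivermectin replicate 3, against 155 to 159 CPM in the others. Dnajb11 was at 451 CPM in wild-type ivermectin replicate 4, against 380 to 392 CPM. Creld2 was at 248 CPM in knockout vehicle replicate 2, against 293 to 296 CPM. Ero1lb was at 1400 CPM in knockout vehicle replicate 4, against 1490 to 1510 CPM. Derl2 was at 175 CPM in wild-type ivermectin replicate 3, against 185 CPM in each of the others, and at 205 CPM in knockout vehicle replicate 1, against 196 to 197 CPM.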

How the results depend on the processing

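With Alb as a covariate, the number of genes past the threshold between the lines with vehicle went from 17 to 2 and that of the chaperone branch from 15 to 2, while the whole table went from 2245 to 383 and the chaperone branch's median log2 difference from -0.194 to -0.231; it stayed at 16 and 14 with ivermectin. The ATF4 branch count with vehicle went from 2 to 0 under Alb as a covariate, under DESeq2 and under thinning, and with ivermectin from 2 to 1 under thinning. Leaving out each library in turn gave 11 to 17 genes with vehicle and 15 to 19 with ivermectin, 11 to 15 and 13 to 16 for the chaperone branch, and 0 to 2 and 2 to 3 for the ATF4 branch. All other settings kept the total of members past the threshold within 1.5 times, down to 12 and 11 under thinning, where the whole table had 1212 and 1437 genes past the threshold in place of 2245 and 3011. By direction, members higher with vehicle went from 3 to 0 under thinning, under the Alb covariate and without wild-type vehicle replicate 4. Members higher with ivermectin went from 2 to 1 under thinning and to 4 under DESeq2. Without wild-type ivermectin replicate 4, P4hb, Ero1lb and Trib3 passed as higher with ivermectin in addition. For ivermectin against vehicle and for the interaction, the count was 0 under all settings run. The ATF4 branch's medians between the lines turned sign under thinning (-0.018 with vehicle and -0.124 with ivermectin) and, with ivermectin, also under the Alb covariate (-0.0661), with the filter at a mean of 50 counts and on leaving out 4 of 16 libraries in turn. Among the single-gene results recomputed, directions turned for Pdia6 with vehicle at 0.0085 without the low-count filter, and under the Alb covariate with vehicle Canx at -0.0188, Ddit3 at -0.1157 and Ppp1r15a at 0.4871; with ivermectin and 1 library left out, Hsp90b1 ran from -0.0648 to 0.0045 (0.0045 without wild-type ivermectin replicate 4; without knockout ivermectin replicate 2 it was 0.003) and Pdia6 from -0.0641 to 0.0083 (without wild-type ivermectin replicate 4). The causes were not tested.

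The labels number the libraries 1 to 4 in each group. Same-numbered libraries correlated by -0.057 to 0.145 in their deviations from the group means. Such low values show no clear pairing by number but cannot decide whether there was one. With the replicate block 17 genes passed with vehicle and 16 with ivermectin, as without it. Over all genes tested the block took the calls from 2245 to 2281 with vehicle and from 3011 to 3045 with ivermectin. For the interaction it took them from 24 to 47. Thinning to the smallest total ended the vehicle calls of Derl2, Ero1l, Sel1l, Sesn2 and Trib3 and the ivermectin calls of Canx, Dnajc3, Herpud1, Ppp1r15a and Sel1l. The fitted differences moved as well, that of Canx from 0.19 to 0.14, of Ppp1r15a from -0.49 to -0.37 and of Trib3 from 0.41 to 0.14.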
